A study of Mus musculus with 3 samples.

Results

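The 45 genes described here encode the subunits of the proteasome, its activators and inhibitor, and the chaperones that assemble it, out of 52550 genes in the deposited table. They were taken by name, as every gene whose symbol is Psm followed by a letter from a to g and a number, leaving out the immunoproteasome subunits Psmb8, Psmb9 and Psmb10, which serve below as a comparison. RNA was measured in 3 libraries, labelled biological replicates of 1 group: LepR+ cells sorted from the superior cervical ganglia, the sympathetic ganglia of the upper neck, of male LepRCRE::Ai32 mice aged 10 weeks. In these mice Cre recombinase made from the leptin receptor gene switches on Ai32, a reporter that makes a channelrhodopsin joined to yellow fluorescent protein, and live reporter-positive cells were sorted and turned into Smart-Seq2 libraries, in which full-length cDNA is amplified by PCR. A Cre reporter also keeps marking cells that made the receptor only earlier. The series title calls the cells sympathetic-associated perineurial cells. All samples belong to this group, and how many animals or cells went into each was not stated, so the spread between them may be partly technical.

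The proteasome degrades proteins that carry ubiquitin chains. Its barrel, the 20S core, has outer rings of alpha subunits, which gate the entrance, and inner rings of beta subunits, of which Psmb5, Psmb6 and Psmb7 carry the active sites. The 19S particle caps the barrel: a ring of ATPases (the Psmc genes) unfolds the substrate, the base subunits Psmd1, Psmd2 and Psmd4 bind ubiquitin or shuttle proteins or act as scaffold, and the lid holds Psmd14, which cuts the chain off. All subunits of a ring stand in equal number in the particle. Apart from the testis form Psma8 and the thymus form Psmb11, these genes are used in nearly every cell type.

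Values are TPM, reads divided by gene length and scaled to the same total in each library. From the deposited values 8289379, 8064300 and 7741239 reads on genes could be recovered for replicates 1, 2 and 3. Lepr, whose Cre marks the sorted cells, had 363, 32.1 and 54.0 TPM. The sorted cells were checked against marker genes: all 6 glial markers lay above 1 TPM (limma, adjusted p under 0.05), with summed levels from 18942 to 22894 TPM, and so did Cldn1 and Tjp1 among 6 perineurial markers, whose sums were 257.5 to 376 TPM, while the perineurial markers Krt19 and Msln had no read and 1 read over the 3 libraries. Markers of glia thus stood far above those of the labelled cell type. Fibroblast markers summed to 4371 to 6505 TPM. None of 5 macrophage markers passed. Their sums were 0.705, 82.8 and 87.3 TPM in replicates 1, 2 and 3. Tyrobp had no read in replicate 1, and Cd68 none in replicates 1 and 3. The 3 mural markers, all above 1 TPM, summed to 419, 182 and 57.1 TPM. The 4 endothelial markers summed to 248, 217 and 235 TPM. Only Emcn passed among them, at 237, 135 and 146 TPM (limma, adjusted p = 0.0037). Among these lists the neuron marker Npy and the lymphocyte markers Trbc2, Nkg7 and Cd79a had no read. In such bulk samples fewer cells of a type and less RNA per cell cannot be told apart.

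Of the 45 genes, 43 had a read in at least 1 library and were tested. The mean of 30 of them lay above 1 TPM and none below (limma's moderated test, Benjamini-Hochberg adjusted over 27395 genes, threshold 0.05), which is 69.8% of the 43, against 16.1% of all genes tested. Of all genes tested, 13.5% were called below. At an unadjusted p under 0.05 limma also put no member below 1 TPM, against 30% of all genes. The median distance from 1 TPM was 5.31 on the log2(TPM + 1) scale. The 30 that passed were also the members with at least 10 TPM in each library, 69.8% of the 43, against 13.4% of all genes tested. The members together took 0.645%, 0.670% and 0.672% of TPM (mean 0.662% ± 0.0147, SD, n = 3). These calls need all 3 libraries: without replicate 1 or replicate 2 limma called no gene of the whole table, with 33 and 29 members above 1 TPM at an unadjusted p under 0.05 (17% and 16.3% of all genes, where all 3 libraries gave 34 members and 20% of all genes), and without replicate 3 it called 17 members (8.88% of all genes), with 26 unadjusted (16.6%).

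The alpha ring was read in every library, and its 7 standard subunits all passed limma's test against 1 TPM with an adjusted p between 0.00336 and 0.0132. Psma5 (ENSMUSG00000068749.9, chromosome 3, 108256926 to 108279974 of GRCm38, forward strand) was the highest of them, at 573, 509 and 757 TPM in replicates 1, 2 and 3 (613 ± 129, SD, n = 3). Psma6 had 397, 344 and 442 TPM, below Psma5 in each library and without overlap. Psma3 had 422, 194 and 523 TPM, and its range spans that of Psma6. Psma1 had 236, 349 and 275 TPM, and Psma2, all of whose libraries lay lower, 110.1, 108 and 169.8 TPM. Psma4 had 217, 48.3 and 107 TPM, the only core subunit whose libraries differed by more than 4-fold, and it was lowest in replicate 2. Psma7, which lies in the ring at the place that Psma8 takes in the testis, was the lowest, at 54.1, 112 and 33.2 TPM. The mean of Psma5 was 9.25 times that of Psma7. Of the 6 pairs of neighbours in this order, 4 overlapped between their libraries.

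The beta ring was likewise read throughout, and each of its 7 standard subunits passed, with limma's adjusted p between 0.00342 and 0.00633. The structural subunits Psmb1 and Psmb2 led it, at 682, 673 and 369 TPM and at 351, 722 and 471 TPM, and were not ordered the same way in all libraries. Of the catalytic subunits, Psmb6, whose site cuts after acidic residues, had 215, 306 and 137 TPM (219 ± 84.3, SD, n = 3). Psmb5, the chymotrypsin-like site and the main target of proteasome inhibitor drugs, had 287, 199.7 and 105 TPM (197 ± 91.1), which overlapped Psmb6. Psmb7, the trypsin-like site, had 52.0, 72.4 and 34.5 TPM (53.0 ± 19), the lowest mean of the ring and under both other catalytic subunits in every library by the deposited lengths. The remaining structural subunits Psmb3 and Psmb4 had 77.1, 139 and 59.5 TPM and 67.3, 87.2 and 114 TPM. Of the 6 neighbouring pairs in the ring, 5 overlapped, so most of the order within it did not exceed the spread between libraries.

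Summed over the ring, alpha subunits had 2010.0, 1662 and 2306 TPM and beta subunits 1732, 2199 and 1290.2 TPM, so replicate 2 was the lowest library for the alpha ring and the highest for the beta ring. In single genes, 5 of 7 alpha subunits were lowest in replicate 2 and 5 of 7 beta subunits were lowest in replicate 3. Of all genes averaging 5 TPM or more, 31.9% were lowest in replicate 2 and 34.9% in replicate 3. With 7 genes in each ring, a difference between the rings was not tested. The 2 rings together had 3742, 3861 and 3597 TPM.

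The tissue-restricted forms were not detected. Psma8, the testis alpha subunit, and Psmb11, the beta subunit of cortical thymus epithelium, had no read in any library, where 3 reads would be 0.694, 0.692 and 0.740 TPM for Psma8 and 0.276, 0.276 and 0.295 TPM for Psmb11. These limits cover counting error only, since PCR copies are not independent molecules. Tested without the filter on reads, both were called below 1 TPM by limma, as were 56.8% of all genes.

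**Figure D1:**
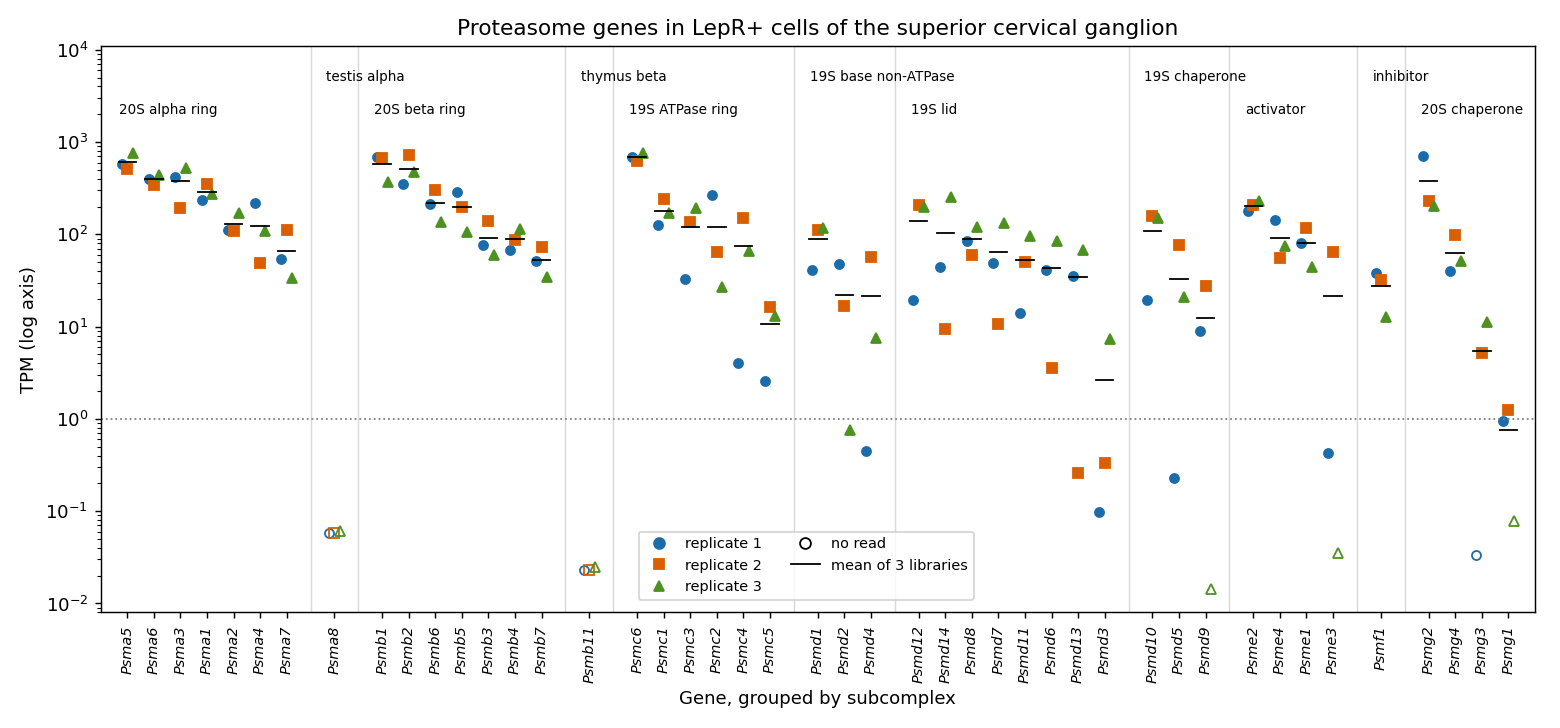
TPM (log axis) of the 45 proteasome genes, grouped by subcomplex and ordered by mean, with a symbol for each library (replicate 1 circle, replicate 2 square, replicate 3 triangle), a bar for the mean and open symbols where a library had no read. The dotted line marks 1 TPM. The 14 standard core subunits stay between 33.2 and 757 TPM in every library, while several 19S subunits, chaperones and Psme3 fall under 1 TPM in 1 or 2 libraries.

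The ATPase ring of the 19S particle covered a wider range than either core ring, and 4 of its 6 subunits lay above 1 TPM. Psmc6 (ENSMUSG00000021832.7, chromosome 14, 45329788 to 45349705 of GRCm38, forward strand) had the highest mean of all members by the deposited lengths, 686, 628 and 767 TPM (694 ± 69.7, SD, n = 3), and on that scale its lowest library lay above the highest of every other ATPase subunit. Psmc1 followed at 126, 242 and 172 TPM (limma, adjusted p = 0.00375). Psmc3 was low in replicate 1 and high in the others, at 33.1, 135 and 194 TPM, whereas Psmc2 was high in replicate 1, at 267, 64.2 and 27.1 TPM. Psmc3 and Psmc2 passed the test (limma, adjusted p = 0.0214 and 0.0391). Psmc4 had 4.03, 151 and 66.3 TPM and Psmc5 2.597, 16.3 and 13.0 TPM, both lowest in replicate 1, and neither passed (limma, adjusted p = 0.0765 and 0.0664). The mean of Psmc6 was 65.3 times that of Psmc5.

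Of the 3 other base subunits among the members 1 passed. Psmd1, the larger scaffold of the base, had 41.5, 110.4 and 118 TPM (limma, adjusted p = 0.00954). Its partner scaffold Psmd2 had 48.0, 16.9 and 0.750 TPM, the last from 7 reads. The ubiquitin receptor Psmd4 went another way, with 0.453, 57.1 and 7.48 TPM from 3, 410 and 50 reads. Psmd2 and Psmd4 therefore had their lowest value in different libraries, and neither passed (limma, adjusted p = 0.180 and 0.255).

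Of the 8 lid subunits among the members 4 lay above 1 TPM: Psmd12, Psmd8, Psmd7 and Psmd11 (limma, adjusted p = 0.0486, 0.00463, 0.0487 and 0.0408). Psmd12 had 19.5, 207 and 197 TPM, low in replicate 1. Psmd8 had 84.5, 60.1 and 119 TPM, the one lid gene whose libraries lay within 4-fold. Psmd11 had 13.9, 49.5 and 95.8 TPM, and Psmd7, the structural partner of Psmd14, 48.9, 10.8 and 132 TPM. Psmd14, the deubiquitinase of the lid, had 44.2, 9.32 and 253 TPM (102 ± 132, SD, n = 3), and its distance from 1 TPM of 4.62 ± 1.07 (SE) missed the threshold (limma, adjusted p = 0.0559). Psmd6 had 41.5, 3.52 and 83.9 TPM, Psmd13 35.5, 0.260 and 67.7 TPM, the middle value from 2 reads, and Psmd3 0.0985, 0.334 and 7.42 TPM from 1, 4 and 88 reads. Psmd14, Psmd8, Psmd7, Psmd6 and Psmd13, 5 of the 8 lid genes, were thus lowest in replicate 2, and 7 of the 8 were highest in replicate 3. Of all genes tested 45.5% were lowest in replicate 2, and 31.9% of those averaging 5 TPM or more. Replicate 3 was the highest library for 9648 of all 27395 genes tested. The summed lid was 288, 341 and 956 TPM, while the summed ATPase ring was 1119, 1237 and 1239 TPM.

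Chaperones of assembly ranged from among the highest members to the edge of detection, and 3 of 7 passed. Psmg1 to Psmg4 help build the core, where Psmg1 and Psmg2 act as a pair and so do Psmg3 and Psmg4. Psmg2 had 700.4, 232 and 202 TPM (limma, adjusted p = 0.00700), but its partner Psmg1 had 3, 4 and 0 reads, at most 1.24 TPM. In the other pair Psmg4 had 40.4, 98.0 and 51.4 TPM (limma, adjusted p = 0.00776), while no read of Psmg3 was found in replicate 1, and replicates 2 and 3 held 5.17 and 11.2 TPM. The partners of both pairs were ordered alike in all 3 libraries, Psmg2 over Psmg1 and Psmg4 over Psmg3, without overlap. Of the chaperones of the 19S base, Psmd10, also known as gankyrin, had 19.5, 157 and 152 TPM and passed (limma, adjusted p = 0.0413). Psmd5 had 0.230, 76.6 and 20.9 TPM and Psmd9 had 9.03 and 27.9 TPM and, in replicate 3, no read. Neither passed (limma, adjusted p = 0.229 and 0.311).

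Activators other than the 19S particle were led by Psme2, a subunit of the interferon-inducible cap. Psme2 had 179.6, 207 and 229 TPM (205 ± 24.8, SD, n = 3) and its partner Psme1 81.4, 116 and 44.5 TPM, below it in each library and without overlap. Psme4, a single-chain activator of the nucleus, had 143, 55.2 and 74.1 TPM. These 3 passed (limma, adjusted p = 0.00336, 0.00741 and 0.00711). Psme3, the subunit of a nuclear cap that works without ubiquitin, had nearly all its reads in replicate 2, with 3, 488 and 0 reads and a level there of 64.7 TPM (limma, adjusted p = 0.574). Psmf1, an inhibitor of the core in the test tube, had 37.9, 31.8 and 12.7 TPM (limma, adjusted p = 0.0198).

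Levels of the core held together between libraries more closely than levels of the 19S particle. Each of the 14 core subunits passed the test against 1 TPM, and 9 of the 17 members in the mature 19S particle did. Counts for the 19S particle leave out its subunits Sem1 and Adrm1, whose names do not begin with Psm. Sem1 passed (limma, adjusted p = 0.0274) and Adrm1 did not (limma, adjusted p = 0.236). The median mean level was 208 TPM in the core and 73.9 TPM in the 19S particle. Libraries lay more than 4-fold apart, that is by over 2 on the log2(TPM + 1) scale, in 1 core gene and in 13 of 17 19S genes, against 32.9% of all genes tested and 67.8% of those averaging 5 TPM or more. The median SD over libraries on that scale was 0.52 for the core and 1.64 for the 19S genes, beside 1.72 for all genes of at least 5 TPM. The 19S count fell to 7 when replicate 1 was left out and was 9 without replicate 2 or 3, and the core count was 0, 0 and 1. Leaving out a library can only lower or keep these counts, and the share over all genes is not given for these settings.

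Spread depends on level, so both particles were set beside genes of like level. At a mean of at least 100 TPM, 1 of 10 core genes and 4 of 6 19S genes had libraries over 4-fold apart, against 31.5% of all genes there. Between 20 and 100 TPM it was 0 of 4 core genes and 7 of 9 19S genes, against 67.4% of all genes. The core thus lay under the share of all genes in both ranges. The 19S share was above it in both. Few genes stand behind each share, and the difference was not tested. Psmc6, Psma6 and Psme2 had the smallest SDs of the members with at least 5 TPM, 0.14, 0.18 and 0.18.

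**Figure D2:**
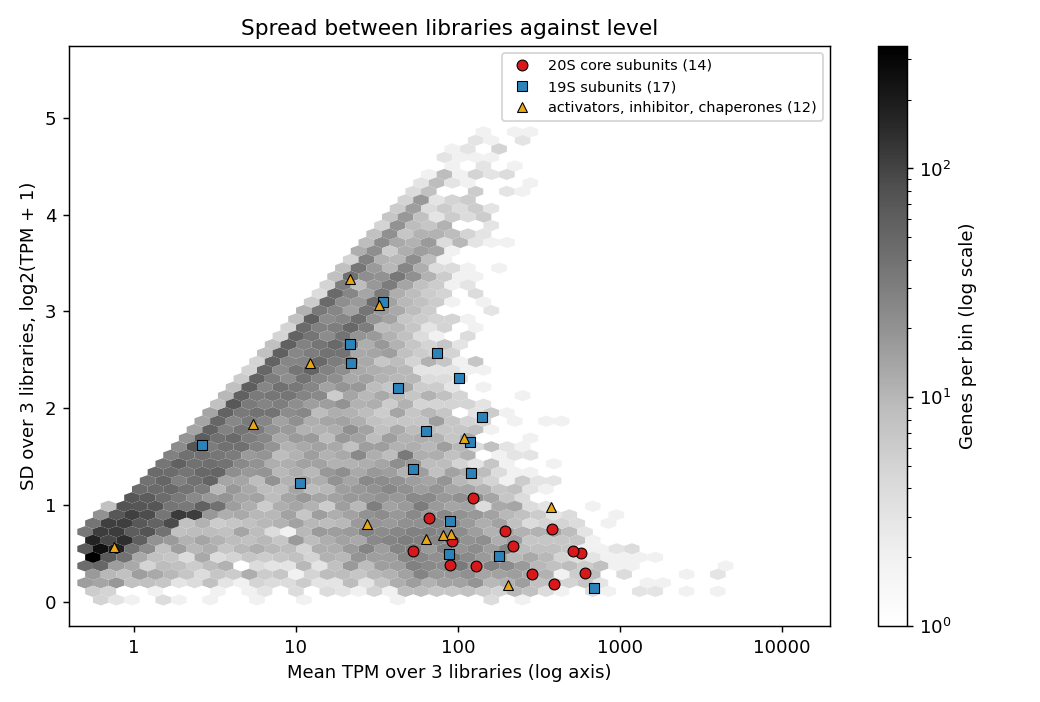
SD over the 3 libraries of log2(TPM + 1) against mean TPM (log axis) for genes averaging 0.5 TPM or more (grey, darker where more genes fall), with the 14 core subunits as circles, the 17 19S subunits as squares and the 12 remaining members with a read as triangles. The core genes lie at SDs of 0.18 to 1.07, while 19S genes reach 3.10.

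The order of subunits was also more alike between libraries in the core. Across the 14 core genes the correlation of log2(TPM + 1) between pairs of libraries was 0.74 to 0.88 (Pearson), and across the 17 19S genes 0.38 to 0.55. Over 10128 genes of at least 5 TPM it was 0.32 to 0.36. These points share their libraries, gene lengths and depth, and the values describe these libraries only. No library was low for the whole 19S particle: 9 of the 17 genes were lowest in replicate 1, 6 in replicate 2 and 2 in replicate 3, where all genes of at least 5 TPM were lowest in 33.2%, 31.9% and 34.9% of cases. Over 4541 genes with 5 TPM or more in each library, the median deviation of a library from the gene's mean log2 TPM was 0.034, 0.037 and -0.013, so the scale of the libraries differed little.

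**Figure D3:**
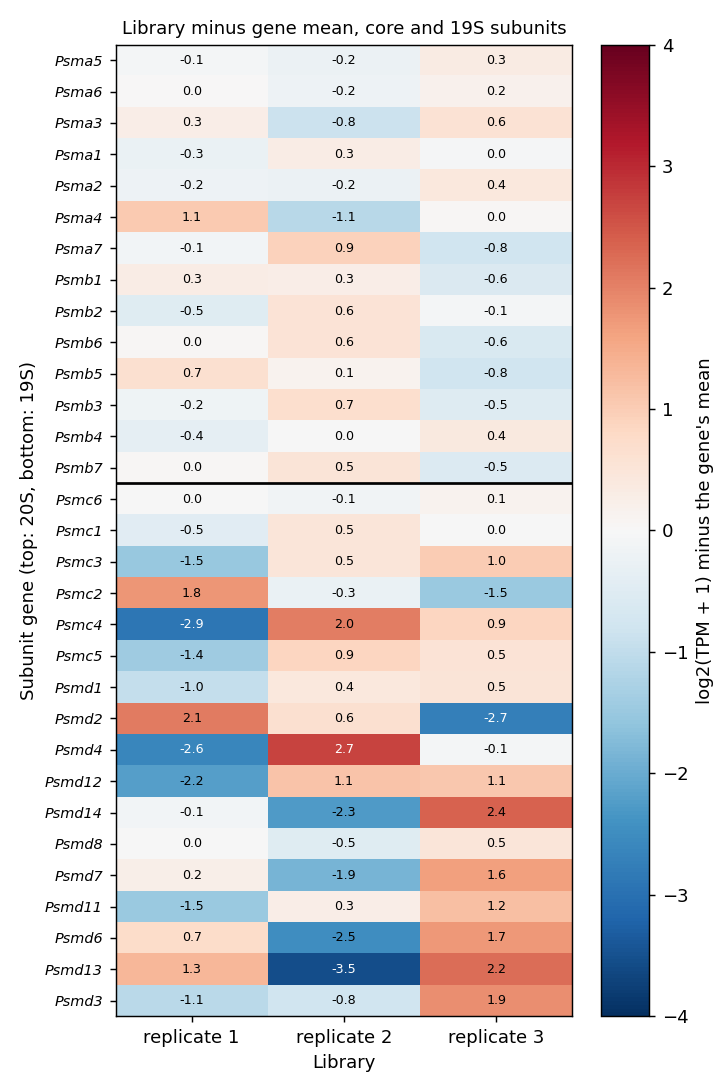
Log2(TPM + 1) of each core (top) and 19S (bottom) subunit gene in each library minus that gene's mean over the 3 libraries, in colour and as printed number. The core block is pale, with SDs of 0.18 to 1.07, while 19S genes deviate in either direction: Psmc4, Psmd4 and Psmd12 are low in replicate 1, Psmd13, Psmd6 and Psmd14 in replicate 2, and Psmd2 in replicate 3.

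Each active site has a second form, which replaces the standard subunit in the immunoproteasome, a variant that cells make under interferon and that trims peptides for MHC class I. In 3 of 3 libraries Psmb6 was above its counterpart Psmb9, which had 5.80, 39.8 and 11.1 TPM, by 3.81 ± 1.07 on the log2(TPM + 1) scale (SD, n = 3). Psmb5 was above Psmb8, at 94.9, 19.5 and 52.7 TPM, also in 3 of 3, by 1.95 ± 1.20. Psmb7 behaved otherwise. Its counterpart Psmb10 had 202, 1.89 and 117 TPM, from 881, 8 and 479 reads, so the immunoproteasome form was the higher one in replicates 1 and 3 and the standard form in replicate 2. The mean difference of 0.33 ± 3.76 hides both directions, and without replicate 2 it was -1.84. Over 5 pairs, with Psma7 against Psma8 and Psmb5 against Psmb11 added, the exact two-sided sign-flip permutation test gave p = 0.25 for 4 pairs (adjusted p = 0.312) and p = 1 for Psmb7 against Psmb10. With 3 libraries 0.25 is the smallest p it can give, so this test cannot reach 0.05 here. The order within each of the 3 catalytic pairs was the same in every library with the length of the principal transcript.

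The 3 immunoproteasome genes made up 35.4%, 9.56% and 39.6% of the summed TPM of catalytic subunits in replicates 1, 2 and 3. Psmb8 lay above 1 TPM (limma, adjusted p = 0.0241), while Psmb9 and Psmb10 missed the threshold (limma, adjusted p = 0.0512 and 0.116). The share was lowest in replicate 2, whose summed macrophage markers, 82.8 TPM, were close to those of replicate 3 and far over replicate 1. Different genes made up these sums. Cd68 had 61.0 TPM in replicate 2 and no read in replicates 1 and 3. Tyrobp and Ptprc had 19.5 and 1.90 TPM in replicate 2, against 75.3 and 11.1 TPM in replicate 3. Summed mural markers were 419, 182 and 57.1 TPM. The part of either cell type in these values was not tested.

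**Figure D4:**
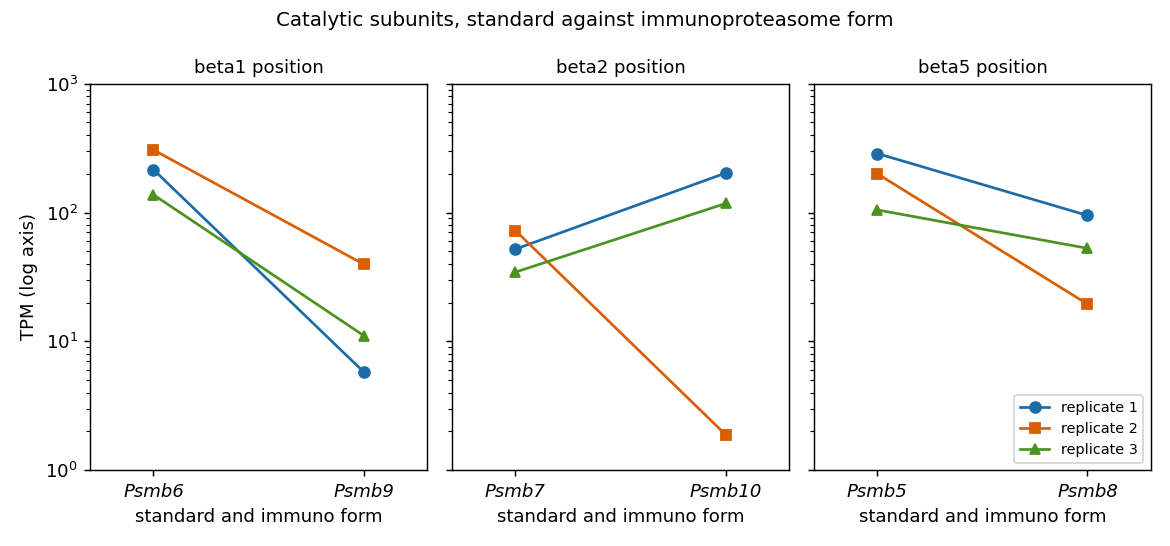
TPM (log axis) of the standard catalytic subunits (left in each panel) and the immunoproteasome subunit that takes the same place (right), with lines joining values of 1 library. At the beta1 and beta5 places all 3 lines fall from left to right, while at the beta2 place 2 lines rise, from 52.0 to 202 TPM and from 34.5 to 117 TPM, and that of replicate 2 falls from 72.4 to 1.89 TPM.

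Other genes of the pathway were for the most part read in every library. Of 41 on the lists, Paaf1 was not analysed here and Maff had no read. Of the 39 tested, 23 lay above 1 TPM and none below by limma's test, with a median mean level of 34.8 TPM. Of all genes tested, 16.1% were called above and 13.5% below. At an unadjusted p under 0.05 limma also put none of the 39 below, against 30% of all genes. Without replicate 1 or 2 the 23 became 0, where limma called no gene of the whole table above. Without replicate 3 they became 7, beside 8.88% of all genes.

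Of the 11 proteasome-associated genes tested, 8 passed. The thioredoxin-like Txnl1 and the zinc finger protein Zfand5 were highest, at 109, 170.5 and 171 TPM and at 144, 64.0 and 142 TPM (limma, adjusted p = 0.00352 and 0.00599). Fam192a, a partner of the Psme3 cap, and Akirin2, which brings proteasomes into the nucleus, were lowest, at 36.2, 0.233 and 5.57 TPM and at 7.15, 2.57 and 13.5 TPM. Among the rest, chosen here for their place in the 19S particle after their values were seen, the ubiquitin receptor Adrm1 had 28.3, 0.110 and 39.6 TPM and the small lid subunit Sem1 26.9, 97.8 and 22.6 TPM. Adrm1 was low in replicate 2 with 1 read, the library in which Psmd13, Psmd6, Psmd7, Psmd8 and Psmd14 were also lowest. Sem1 was highest in that library. Of the 17 19S genes 6 were lowest and 5 highest in replicate 2, where 31.9% of all genes averaging 5 TPM or more were lowest.

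Of 6 genes for ubiquitin and its activating enzymes 4 passed. The polyubiquitin gene Ubb had 1965, 2026 and 1537 TPM (1843 ± 266, SD, n = 3), above every proteasome gene. Rps27a, which encodes ubiquitin fused to a ribosomal protein, had 186, 557 and 184 TPM. Uba6, the second ubiquitin-activating enzyme, had 48.5, 55.7 and 32.9 TPM. Of 9 genes for shuttle proteins and the unfoldase complex 6 passed: the unfoldase Vcp had 48.0, 89.8 and 117 TPM and the shuttle Ubqln1 27.5, 143 and 81.6 TPM, while the Vcp cofactors Ufd1 and Nploc4, which work as a pair, had 13.5, 10.5 and 21.5 TPM and 1.74, 1.25 and 9.56 TPM.

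Of 10 tested genes for transcriptional control of proteasome genes 4 passed. Nfe2l2, a factor of the oxidative stress response, had 22.7, 180.1 and 0.798 TPM, the last from 7 reads, and did not pass (limma, adjusted p = 0.189). Ngly1, the enzyme that strips sugars from the proteasome factor Nfe2l1, had 30.0, 63.1 and 66.3 TPM (limma, adjusted p = 0.008). Maff and Mafk, small partners of these factors, were lowest, with no read and with 0, 30 and 0 reads. Nfe2l1 itself, the factor that restores proteasome genes when the proteasome is blocked, is named after its values were seen. It had 33.2, 2.32 and 19.1 TPM (limma, adjusted p = 0.0869). Replicate 2 was the lowest library for Nfe2l1 and the highest for Nfe2l2.

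Nfe2l1 and Nfe2l2 bind the antioxidant response element, whose core was searched as TGACNNNGC, with CCAAT, the box bound by the NF-Y factors, on both strands of 300-base promoter windows (250 bases before to 50 after each RefSeq start, GRCm38.p6). A window was found for 37 members, and none for Psma8, Psmb1, Psmb2, Psmb7, Psmc3, Psmd3, Psmd7 and Psmg2. TGACNNNGC occurred in 6 of 37 members (16.2%), against 13.99% of 27025 genes, and CCAAT in 13 (35.1%), against 41.1%. Neither share stood far from that of all promoters. The 4 windows printed are those of the highest core gene by the deposited lengths, Psma5, the highest ATPase gene, Psmc6, and the catalytic genes Psmb5 and Psmb6, on the strand of the gene, with matches to either motif in capitals.
Psma5 (chr3:108256676-108256975, forward strand): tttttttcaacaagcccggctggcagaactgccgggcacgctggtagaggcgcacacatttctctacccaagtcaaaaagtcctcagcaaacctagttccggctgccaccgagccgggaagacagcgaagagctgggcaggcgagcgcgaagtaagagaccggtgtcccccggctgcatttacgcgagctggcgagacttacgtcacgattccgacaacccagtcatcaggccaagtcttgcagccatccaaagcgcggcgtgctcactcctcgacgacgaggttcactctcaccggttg
Psmc6 (chr14:45329574-45329873, forward strand): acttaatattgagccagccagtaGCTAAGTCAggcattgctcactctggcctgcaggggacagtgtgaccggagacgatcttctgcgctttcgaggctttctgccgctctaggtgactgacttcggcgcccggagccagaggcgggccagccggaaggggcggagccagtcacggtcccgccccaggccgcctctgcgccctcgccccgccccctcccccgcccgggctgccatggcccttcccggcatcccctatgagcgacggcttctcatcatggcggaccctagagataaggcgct
Psmb5 (chr14:54617946-54618245, reverse strand): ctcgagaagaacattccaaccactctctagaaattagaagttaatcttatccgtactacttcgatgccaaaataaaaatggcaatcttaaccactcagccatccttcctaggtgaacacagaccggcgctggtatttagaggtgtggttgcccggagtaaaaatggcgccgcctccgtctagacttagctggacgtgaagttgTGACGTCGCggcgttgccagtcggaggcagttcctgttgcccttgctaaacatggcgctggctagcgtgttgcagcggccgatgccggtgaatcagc
Psmb6 (chr11:70525107-70525406, forward strand): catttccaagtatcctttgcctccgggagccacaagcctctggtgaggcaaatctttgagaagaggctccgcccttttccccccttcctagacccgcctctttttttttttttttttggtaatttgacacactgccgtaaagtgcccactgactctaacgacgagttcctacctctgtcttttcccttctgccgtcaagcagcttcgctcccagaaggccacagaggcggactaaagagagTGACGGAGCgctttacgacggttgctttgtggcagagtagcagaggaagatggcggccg
Psma5 held neither motif in this window. In the other three the capitals mark TGACNNNGC, starting 227, 47 and 9 bases before the start of Psmc6, Psmb5 and Psmb6, on the opposite strand in Psmc6.

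The remaining matches to TGACNNNGC lay in Psmd9, Psme4 and Psmd12, and are shown with up to 16 bases on each side to complete the set.
Psmd9 (chr5:123228143-123228183, forward strand): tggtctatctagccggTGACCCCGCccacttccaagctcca
Psme4 (chr11:30771752-30771792, forward strand): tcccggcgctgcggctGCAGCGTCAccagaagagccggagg
Psmd12 (chr11:107479278-107479305, forward strand): tctGCTGTGTCAcatttgcccccctcag
The 6 genes with a match included subunits that were even between libraries, such as Psmc6 with an SD of 0.14, and uneven ones, such as Psmd9 and Psmd12 with SDs of 2.47 and 1.91. A match is a description of these letters and says nothing of binding.

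Levels per length depend on the length used. The deposited values divide by the length of all annotated exons, which for members with a read was 1.64 times (median) the length of the principal transcript in GENCODE M21, from 0.589 to 3.36 times. The ratio was largest for Psma7, 3072 against 914 bases. With the principal length, an alternative added after the data were seen, the mean of Psma7 would be 223 in place of 66.3 TPM, that of Psma1 704 in place of 286, and Psma1 rather than Psma5 would lead the alpha ring, with Psma2 (163) the lowest. The ratio of highest to lowest in that ring fell from 9.25 to 4.32. In the beta ring Psmb2 (722) and Psmb6 (515) would then precede Psmb1 (339) and overlap each other, and Psmb4 (147) rather than Psmb7 (156) would be lowest. Psmb7 would no longer lie under Psmb5 in each library, with 153, 214 and 102 against 278, 194 and 101 TPM. Psmc6 would keep the highest mean of the ATPases (486) and Psmc5 the lowest (11.3), but Psmc2 would pass Psmc6 in replicate 1 (753 against 480.3). Psmc6 would also stand below Psmb2, Psma1, Psma5 (654), Psma3 (519) and Psmb6, so it would no longer be the highest member. The core median over the 19S median was 2.82 by the deposited values and 2.58 with the principal length. For Psmb1, Psmb5 and Psmc6 the deposited length was shorter than the M21 principal transcript. These 3 lengths were solved from the values, not read from an annotation.

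Near-identical copies limit some of these levels. Of the 50-base stretches of each gene's protein-coding transcripts, over 20% also occurred in transcripts of another gene for 7 members, Psma3, Psma5, Psmb3, Psmb5, Psmd2, Psme2 and Psmg3, and none did for 24 members. For Psme2 the share was 54.9%, with its retrocopy Psme2b, which had 20.2, 117 and 28.6 TPM in the table. For Psma5 it was 54.5% and for Psmb5 54.1%, mostly with processed pseudogenes that themselves had from 2 to 20 reads a library. Psmb3 had the largest share, 55.8%, of which most (39.9% of its stretches) lay in AC114990.1, whose level is not given here. How the authors counted reads that fit 2 places was not stated, so these 7 levels are uncertain. Exons of 11 members overlap another gene, among them Psmd9 (25.5% of its exon length, a noncoding gene on the opposite strand) and Psmb7 (11.8%, Nek6), and the strand setting of the counting was not stated.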

How the data were processed

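The authors deposited log2 TPM per gene for 3 Smart-Seq2 libraries of sorted LepR+ ganglion cells. Alignment and counting tools named in the submitters' processing notes are STAR and featureCounts, with build mm10 (GRCm38). No version, annotation, strand setting or filter was stated. The deposited values hold 0.25 read added to each gene, seen from the values, so reads were recovered with GENCODE M21 exon lengths (49791 genes whole within 0.02 read in every library) or, for 2758 genes and 7 members, with a length solved from the values. Where a library had no read, reads are printed in place of TPM, while means and tests use the values as deposited.

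For each of 27395 genes with a read, limma 3.58.1 in R 4.3.3 compared the average of log2(TPM + 1) with the value that 1 TPM takes on that scale, two-sided, with Benjamini-Hochberg adjustment over all genes and a threshold of 0.05. The added 1 shrinks differences among low genes. Pairs of genes were compared within libraries by an exact sign-flip test. Every member is accounted for within its subcomplex. From each pathway list the 2 highest and 2 lowest means are named, others with the reason given, and 1 gene that this rule names is not reported here. The members and lists were chosen with earlier results of these data known. Other work used Python 3.11.15, pandas 2.3.3 and scipy 1.17.1. Alternatives were other pseudocounts, levels, filters, scalings and leaving out each library.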

Additional observations from a re-analysis of the deposited data

How the results depend on the processing

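The count of members above 1 TPM was between 29 and 35 under every alternative of pseudocount, level, filter, trend and scaling, with all 3 libraries. Leaving out 1 library gave 0 to 17 for members above 1 TPM, 0 to 7 for pathway genes above, 0 to 2434 for all genes above and 0 to 4889 for all genes below (limma, adjusted p under 0.05), fits that hold fewer samples. All genes below numbered 0 at a level of 0.5 TPM, 0 among genes averaging 0.5 TPM or more, 0 without mitochondrially encoded genes, 9648 with a mean-variance trend and 29850 with no filter. With no filter, which adds genes without a read, 2 members (Psma8 and Psmb11) and 1 pathway gene were called below. Apart from the added genes, the cause was not tested. Leaving out mitochondrially encoded genes raised the members' share of TPM to 0.832%, since the total is smaller. The difference of Psmb7 and Psmb10 ranged from -1.84 to 1.46 when 1 library was left out, negative without replicate 2, and the cause was not tested. The other 4 pairs kept their direction under all alternatives run. The median SD of the members was 0.66 to 0.89 with 1 library left out, beside 0.83. No paired analysis was possible because the labels give 1 group. With 3 libraries, a gene with few reads, such as Psmg1, cannot be told from an absent one in a single library.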
